A study of Rattus norvegicus with 6 samples.

Results

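The 10 genes described here encode the inducible enzymes, and one transporter, of arginine and tryptophan metabolism: Nos2, Arg1, Arg2, Ass1, Asl, Slc7a2 and Odc1 on the arginine side, and Ido1, Kmo and Kynu on the tryptophan side. They were chosen by name from a total of 18166 genes measured, and a gene was read from a probe set annotated to that gene alone. Each of the 10 had 1 such probe set, so no choice between probe sets was needed. Cerebral arteries of male rats were taken 6 hours after subarachnoid haemorrhage (SAH), in which blood spills beneath the membrane covering the brain, and arteries of sham-operated male rats served as controls. There were 3 arrays per group, numbered 1, 4 and 5 for SAH and 6, 7 and 8 for sham, and values are always listed in that order. Strain, age, the way the bleed was produced, the time after the sham operation and any pooling of rats on an array were not given in the sources used here. P-values therefore measure the spread between these samples, which may be technical.

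Arginine enters cells through cationic amino acid transporters such as CAT2, the product of Slc7a2. Inducible nitric oxide synthase (Nos2) turns it into nitric oxide and citrulline, whereas the arginases (Arg1 in the cytosol, Arg2 in mitochondria) split it into urea and ornithine, which ornithine decarboxylase (Odc1) passes on to polyamines. Argininosuccinate synthase (Ass1) and lyase (Asl) rebuild arginine from citrulline. Indoleamine 2,3-dioxygenase (Ido1) opens tryptophan breakdown, and kynurenine 3-monooxygenase (Kmo) and kynureninase (Kynu) act further down the same path, which can end in NAD. Interferon gamma is known to induce Ido1, and bacterial products and cytokines Nos2, in macrophages and in vascular smooth muscle. Nitric oxide relaxes arteries, and kynurenine has been described as a vessel relaxant.

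Promoter sequences from RefSeq, build GRCr8, matched 5 of the 10 genes: Ass1, Asl, Odc1, Kmo and Kynu. Nos2, Arg1, Arg2, Slc7a2 and Ido1 were not matched. The 250 bases before the gene start are shown for Kmo and Kynu, the tryptophan-side genes among the 5, with the match to an interferon or inflammatory motif in capitals. Kmo lies on the plus strand, with this stretch at chr13:90089271-90089520, and Kynu on the plus strand, at chr3:48188036-48188285. Both are written 5′ to 3′.
Kmo: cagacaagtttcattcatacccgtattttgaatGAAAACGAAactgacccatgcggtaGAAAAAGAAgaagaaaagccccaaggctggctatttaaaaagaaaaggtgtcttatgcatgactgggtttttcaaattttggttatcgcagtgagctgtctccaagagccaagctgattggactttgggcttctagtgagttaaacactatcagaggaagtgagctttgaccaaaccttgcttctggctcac
Kynu: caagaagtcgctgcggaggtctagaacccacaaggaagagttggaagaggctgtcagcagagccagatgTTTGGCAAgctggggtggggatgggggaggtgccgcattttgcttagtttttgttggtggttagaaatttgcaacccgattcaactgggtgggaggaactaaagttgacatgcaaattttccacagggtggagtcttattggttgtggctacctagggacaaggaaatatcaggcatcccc
The capitals in Kmo are 2 matches to the interferon-stimulated response element GAAANNGAA, from 217 to 209 and from 192 to 184 bases before the start. The capitals in Kynu are 1 match, on the minus strand, to the C/EBP core TTGCNNAA, from 181 to 174 bases before the start.

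Each motif was searched on both strands of the same 250 bases in all 33469 promoters of the table. The response element was found in 8.12% of them, and among the 5 matched genes in Kmo. The C/EBP core was found in 9.22% of all promoters, and among the 5 in Kynu. The NF-kappaB site GGNNTTTCC (5.19% of all promoters) and the E-box CACGTG (5.59%) were in none of the 5. The hypoxia core ACGTG (16.6% of all promoters), which is also part of the E-box, was in Asl and Odc1, the AHR core GCGTG (25.9%) in Ass1 and Odc1, the CRE core TGACG (18.2%) in Odc1 and the TATA box TATAAA (12.9%) in Ass1. The TATAAA match in Ass1 lay on the minus strand, opposite to the gene, from 60 to 55 bases before the start. A match is a run of letters, not a shown binding site.

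The values are log2 expression values normalized by the authors with RMA, and the median of the probe sets tested lay between 7.31 and 7.37 on the 6 arrays. Of the markers of the labelled tissue, 10 of 10 measured smooth muscle genes and 9 of 9 endothelial genes were above the array's median on every array. The same held for 10327 of all 18166 genes and for 16 of 18 monocyte and macrophage markers, so this mark is a loose one. The mean of 14 measured neutrophil markers was 8.60, 8.56 and 9.26 after SAH against 7.33, 7.57 and 9.04 in the sham group, so sham array 8 stood apart from the other sham arrays. The mean of 12 labelling controls, bacterial RNAs added during preparation, was 6.79, 7.59 and 7.46 after SAH against 7.03, 7.06 and 7.04 in the sham group. No detection call is given with the values. The array's 23 background probe sets read from 1.73 to 9.64, depending on the GC content of their probes, so how far a dim gene stood above background is not known.

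None of the 10 genes passed the threshold, a limma adjusted p under 0.05 over all 36495 probe sets tested, in a comparison where 1.29% of all genes did (235 of 18166; 175 of them higher, or 0.963%, and 60 lower). With 1 array left out, that count was 670, 41 and 59 (SAH 1, 4 and 5 omitted in turn) and 29, 55 and 95 (sham 6, 7 and 8 omitted). At an unadjusted p under 0.05 there were 3 of the 10, Nos2, Ido1 and Kynu, all higher after SAH, where 18.6% of all genes met this mark and 8.16% met it with a higher value. The SAH and sham values did not overlap for 2 of the 10, Ido1 and Kynu, against 26.8% of all genes. The difference, SAH minus sham, was above 0 for 8 of the 10 and for 47.3% of all genes, and its median was 0.26 over the 10 and -0.01 over all genes. The differences ran from -0.28 for Odc1 to 2.38 for Nos2.

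**Figure D1:**
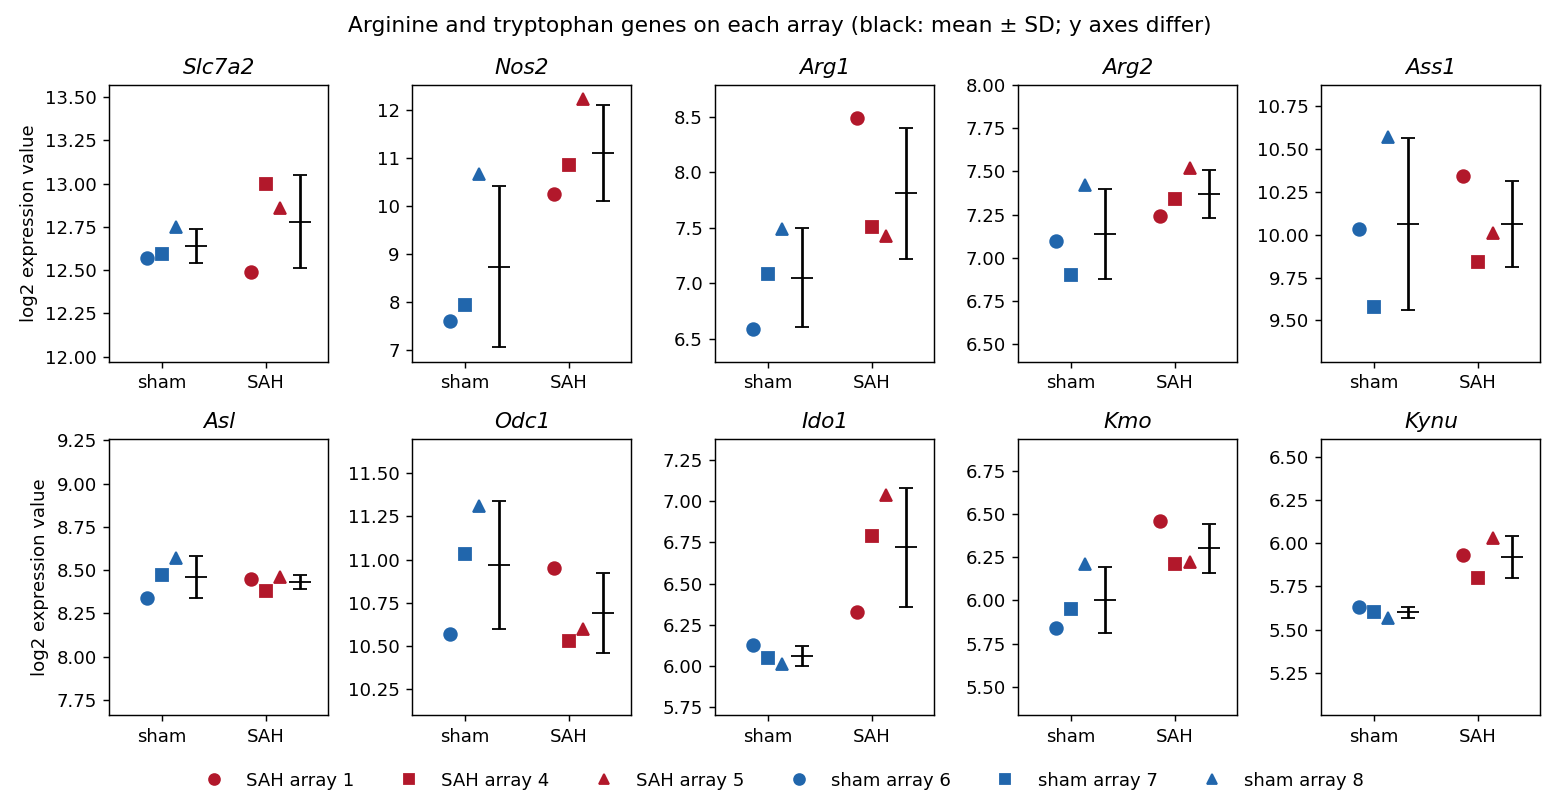
Log2 expression value of each of the 10 genes on the 3 sham arrays (blue) and the 3 SAH arrays (red), with the group mean ± SD (n = 3) in black beside them; the y axis differs between panels. Ido1 and Kynu are the panels in which no SAH point lies as low as a sham point, and Nos2 on sham array 8 (10.66) lies among the SAH points.

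Nos2, inducible nitric oxide synthase, differed most of the 10. Its probe set (17648985) read 10.26, 10.86 and 12.22 after SAH against 7.61, 7.94 and 10.66 in the sham group. Sham arrays 6 and 7 were low and close together, and sham array 8 lay above SAH array 1, so the groups overlapped through 1 array. The means were 11.11 ± 1.00 and 8.74 ± 1.68 (SD, n = 3 each), a 5.19-fold higher value after SAH with a 95% interval of 1.26-fold to 21.3-fold, which is not adjusted for the number of probe sets tested. The log2 difference was 2.38 ± 0.86 (SE; limma adjusted p = 0.276). Only 22 of the 18166 genes had a larger difference in either direction, and 156 of the 175 called rises were smaller. Its SE was exceeded by that of 11 genes, and its range over the 6 arrays, 4.61 log2 units, by that of 3 genes. The difference and its error were thus both near the top of the table.

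Nos2 was high on the arrays where the mean of the neutrophil markers was high. The 4 arrays with a neutrophil marker mean of 8.56 or more held the 4 highest Nos2 values, sham array 8 among them, and the 2 arrays with the lowest marker mean held the lowest. With this mean as a covariate the difference of Nos2 fell to 0.81 ± 0.26 (SE; limma adjusted p = 0.393). Apart from sham array 8, this mean was itself higher after SAH than in sham, so the fit cannot tell neutrophils and SAH apart. None of the 14 neutrophil markers passed, 10 of the 14 differences were above 0, and the list's median difference was 0.65. At an unadjusted limma p under 0.05 there were 3 of the 14 (21.4%, against 18.6% of all genes), all higher after SAH. These were Csf3r (1.81), Trem1 (1.79) and Lcn2 (0.68). The 4 with a difference below 0 (-0.13 to -0.01) were the granule protein genes Mpo, Elane and Ltf and the receptor Cxcr1. All 4 were below the array's median on every array. Ccr2, the chemokine receptor of inflammatory monocytes, had an array pattern like that of Nos2, at 9.94, 10.17 and 10.33 after SAH against 7.41, 7.65 and 9.82 in the sham group (difference 1.86 ± 0.59, SE, limma adjusted p = 0.228). Ccr2 had the highest difference of the 18 measured monocyte and macrophage markers, and was named after its values were seen. In that list 9 differences were above 0 and 9 below, from -1.29 to 1.86, with a median of -0.00. The part of monocytes in the value of Nos2 was not tested. Without sham array 8 the difference of Nos2 was 3.34 ± 0.55 (adjusted p = 0.108), and without SAH array 5, the highest, it was 1.82 ± 0.90 (adjusted p = 0.558). In whole arteries, more cells of a type and more RNA of a gene per cell cannot be told apart.

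**Figure D2:**
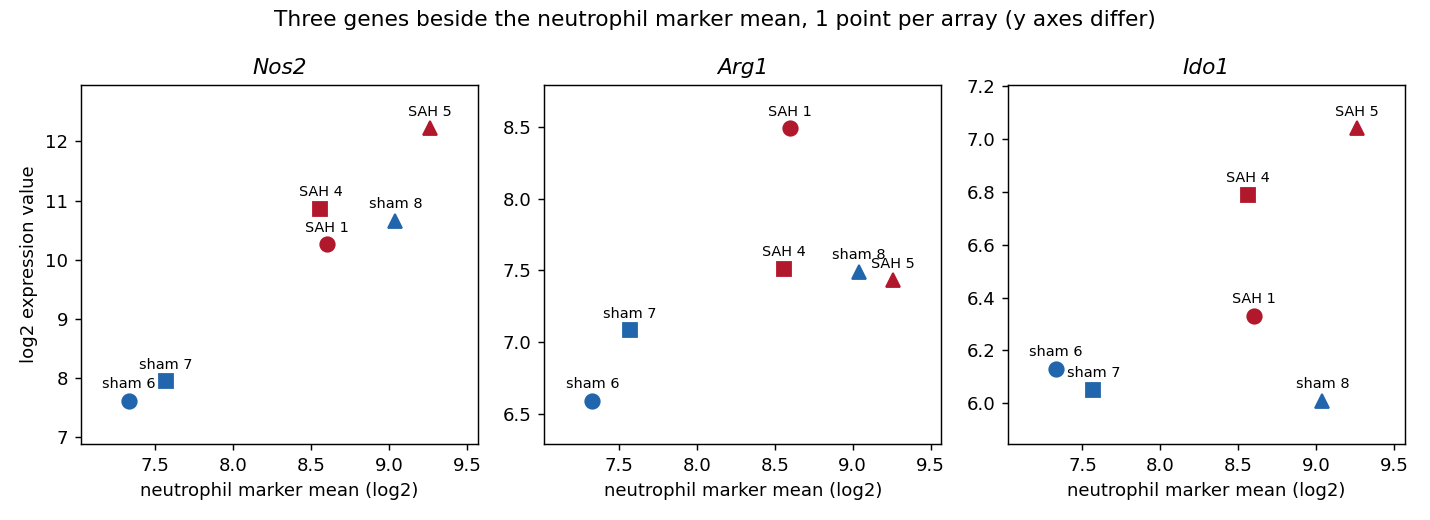
Log2 expression value of Nos2, Arg1 and Ido1 against the mean log2 value of 14 neutrophil markers, 1 point per array, SAH in red and sham in blue; the y axis differs between panels. Sham array 8 lies with the SAH arrays for Nos2 (10.66) and Arg1 (7.49), but lowest of all for Ido1 (6.01).

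The partners of nitric oxide synthesis showed no difference of that size. Slc7a2, the arginine transporter CAT2, read 12.49, 13.00 and 12.86 after SAH against 12.57, 12.59 and 12.75 in the sham group. SAH array 1 was the lowest of the 6 arrays and SAH array 4 the highest. The difference was 0.15 ± 0.15 (SE; limma adjusted p = 0.725), with a 95% interval of 0.864-fold to 1.42-fold. It was 0.29 ± 0.12 without SAH array 1 (adjusted p = 0.249), 0.04 without SAH array 4 and 0.06 with the neutrophil covariate.

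Ass1, which joins citrulline to aspartate, read 10.34, 9.84 and 10.01 after SAH against 10.03, 9.58 and 10.57 in the sham group. The sham arrays held both the lowest and the highest value, and both group means were 10.06 (SD 0.25 for SAH and 0.50 for sham, n = 3 each). The difference of 0.00 ± 0.26 (SE; limma adjusted p = 0.999) had an interval of 0.655-fold to 1.53-fold, and took either sign with 1 array omitted (-0.24 without sham array 7, 0.26 without sham array 8). Asl, which releases arginine in the next step, was the steadiest of the 10, at 8.45, 8.38 and 8.46 after SAH against 8.34, 8.47 and 8.57 in the sham group. All 3 SAH values lay within the sham range. The difference was -0.03 ± 0.10 (SE; limma adjusted p = 0.934) with an interval of 0.83-fold to 1.16-fold, the narrowest of the arginine-side genes, and it was 0.03 without sham array 8.

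The arginases had smaller differences than Nos2. Arg1, the cytosolic enzyme, read 8.49, 7.51 and 7.43 after SAH against 6.59, 7.08 and 7.49 in the sham group. SAH array 1 stood alone above the rest, by 0.98 over the next array, the second largest such excess of any gene on that array after Serpinb2 (1.51), and the other SAH arrays lay next to sham array 8. The means were 7.81 ± 0.59 and 7.05 ± 0.45 (SD, n = 3 each), and the difference was 0.75 ± 0.33 (SE; limma adjusted p = 0.369). It was 0.42 without SAH array 1 and 0.97 without sham array 8, with adjusted p of 0.444 and 0.334. Arg1 is also used as a marker of alternatively activated macrophages. Of 11 other genes of that kind measured, 1 rose (the chemokine Ccl22, by 2.03 ± 0.29, SE, limma adjusted p = 0.0381) and none fell. In that list 4 differences were above 0 and 7 below, with a median of -0.15. Only 6 of the 11 were above the array's median on every array, and Retnla, Chi3l3 and Pdcd1lg2 were above it on none. The mannose receptor Mrc1 differed by -1.24 ± 0.39, Cd163 by -1.29 ± 0.44 and Tgm2 by 0.37 ± 0.14 (adjusted p = 0.218, 0.25 and 0.306). Mrc1 and Cd163 are also in the monocyte and macrophage list.

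Arg2, the mitochondrial arginase, read 7.24, 7.34 and 7.52 after SAH against 7.10, 6.90 and 7.42 in the sham group. Sham array 8 lay above SAH arrays 1 and 4. The difference was 0.23 ± 0.16 (SE; limma adjusted p = 0.578), with a 95% interval of 0.906-fold to 1.51-fold, and it was 0.01 with the neutrophil covariate. Omitting SAH array 5 gave 0.15, omitting sham array 7 gave 0.11 and omitting sham array 8 gave 0.37.

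Odc1, the enzyme that turns ornithine into putrescine, was 1 of the 2 genes with a difference below 0. It read 10.95, 10.53 and 10.60 after SAH against 10.57, 11.03 and 11.31 in the sham group. Sham array 6 was as low as the lower SAH arrays. The difference was -0.28 ± 0.21 (SE; limma adjusted p = 0.606), with an interval of 0.583-fold to 1.16-fold. It was -0.11 without sham array 8, -0.48 without sham array 6 and -0.50 with the neutrophil covariate.

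On the tryptophan side the 3 genes were dim, below the array's median on all 6 arrays, and RMA understates differences near background. Ido1, the entry enzyme, read 6.33, 6.79 and 7.04 after SAH against 6.13, 6.05 and 6.01 in the sham group. Every SAH array lay above every sham array, by 0.20 at the closest, and the sham arrays were within 0.12 of each other. The means were 6.72 ± 0.36 and 6.06 ± 0.06 (SD, n = 3 each), 1.57-fold higher after SAH with a 95% interval of 1.17-fold to 2.12-fold, and the difference was 0.65 ± 0.18 (SE; limma adjusted p = 0.183), the smallest adjusted p of the 10. Without SAH array 1, the lowest of the SAH arrays, Ido1 passed the threshold (0.85 ± 0.12, adjusted p = 0.0302), and this was the only call of any of the 10 genes under the alternatives tried. Under the other alternatives its difference lay between 0.49, without SAH array 5 (adjusted p = 0.379), and 0.69.

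Sham array 8, with a neutrophil marker mean of 9.04, held the lowest Ido1 value, though the sham arrays lay within 0.12 of each other. With the neutrophil covariate the difference of Ido1 was 0.61 ± 0.24 (SE; limma adjusted p = 0.492). The part of neutrophils in the value of Ido1 was not tested. The labelling controls, like Ido1, were lower on SAH array 1 than on SAH arrays 4 and 5. They lay at 7.03 to 7.06 in sham, above SAH array 1, whereas Ido1 was lower on the sham arrays than on SAH array 1. The part of labelling in the result was not tested. Dendritic cells are a known source of Ido1: of 11 measured dendritic cell markers none passed, 8 differences were above 0, and the list's mean was 7.21, 7.40 and 7.46 after SAH against 7.14, 7.15 and 7.24 in the sham group. The part of these cells in the value of Ido1 was not tested.

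Kynu, which cleaves kynurenine and 3-hydroxykynurenine, read 5.93, 5.80 and 6.03 after SAH against 5.63, 5.60 and 5.57 in the sham group. As with Ido1, the groups did not overlap, with a gap of 0.17, and the sham arrays lay within 0.05 of each other. The difference was 0.32 ± 0.10 (SE; limma adjusted p = 0.219), 1.25-fold with a 95% interval of 1.06-fold to 1.47-fold. It was 0.31 with the neutrophil covariate, and between 0.26 and 0.38 with an array left out. Kmo, which hydroxylates kynurenine and whose promoter carries the 2 response element matches printed above, read 6.46, 6.21 and 6.22 after SAH against 5.84, 5.95 and 6.21 in the sham group. Sham array 8 lay level with SAH arrays 4 and 5. The difference was 0.29 ± 0.13 (SE; limma adjusted p = 0.384), and 0.17 with the neutrophil covariate.

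**Figure D3:**
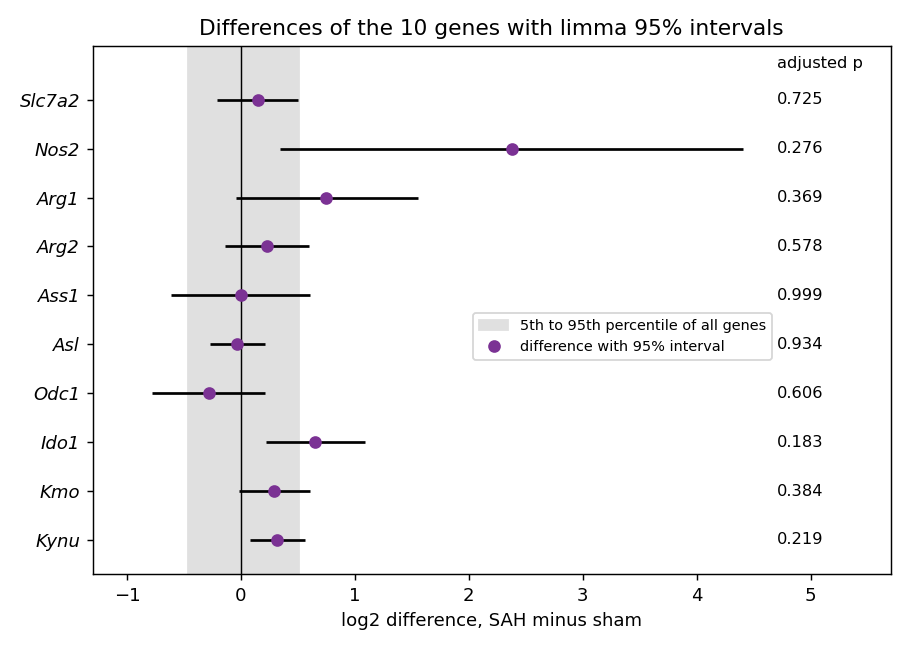
Log2 difference, SAH minus sham, of the 10 genes with limma's 95% interval (line), the adjusted p at the right, and the span from the 5th to the 95th percentile of the differences of all genes (-0.46 to 0.51) in grey. Nos2 (2.38), Arg1 (0.75) and Ido1 (0.65) lie beyond the grey span, and the interval of Nos2 is the widest.

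**Figure D4:**
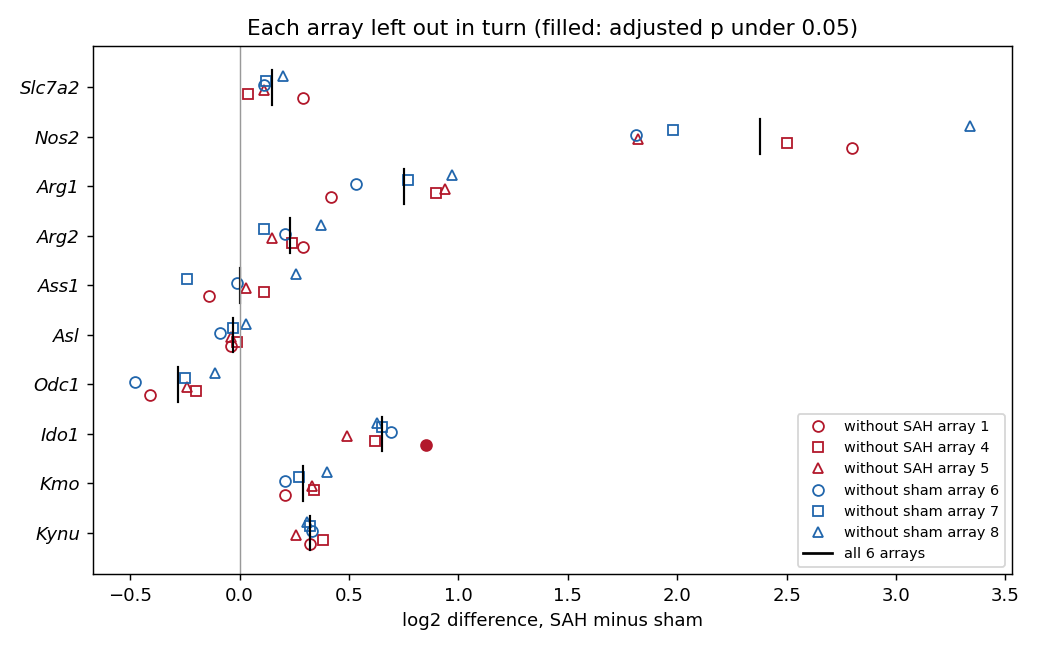
Log2 difference of each of the 10 genes with 1 array left out (symbols, coloured by the group of the array left out, filled where the adjusted p was under 0.05) and with all 6 arrays (black bar). Ido1 without SAH array 1 is the filled symbol, and Nos2 spans the widest stretch, from 1.81 to 3.34.

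Within the sham group, array 8 held the highest value for Nos2, Arg1, Arg2, Ass1, Asl, Slc7a2, Kmo and Odc1, and the lowest for Ido1 and Kynu. In Nos2 the departure was 1.92 above the sham mean, which includes that array, and in Arg1 0.43. Leaving it out moved the difference of Nos2 from 2.38 to 3.34 and that of Ass1 from 0.00 to 0.26, whereas Ido1 moved from 0.65 to 0.63 and Kynu from 0.32 to 0.31. The plot with each array left out shows these shifts side by side.

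Other genes of the same pathways were read from 5 lists, with 82 of 96 listed genes measured. Of the 82, 1 rose, 1 fell and 80 did not pass, and the median difference was 0.02. At an unadjusted p under 0.05 there were 22 of the 82, 10 higher and 12 lower, or 26.8%, against the 18.6% of all genes given above. Wars1, the cytosolic tryptophanyl-tRNA synthetase, which like Ido1 is known to be induced by interferon gamma, read 11.66, 12.07 and 12.23 after SAH against 10.62, 10.96 and 10.71 in the sham group. The groups lay well apart, and the gene rose 2.34-fold (difference 1.22 ± 0.17, SE, limma adjusted p = 0.0371). Omitting SAH array 4 or 5, or any of the sham arrays 6, 7 and 8, ended the call (adjusted p of 0.146, 0.117, 0.196, 0.12 and 0.119), as did the neutrophil covariate (0.176). The difference itself stayed between 1.1 and 1.32 in these omissions and was 1.18 with the covariate.

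Among genes of tryptophan, kynurenine and NAD metabolism (28 measured, 1 up, none down, median 0.01), Nampt, the rate-limiting enzyme of NAD salvage, read 11.30, 12.10 and 12.28 after SAH against 10.31, 10.49 and 10.51 in the sham group. The groups did not overlap, but its difference of 1.46 ± 0.25 (SE) missed the threshold (limma adjusted p = 0.064). Nampt passed with the filter on dim probe sets, with limma's trend and robust options, with array weights and without SAH array 1. Slc7a5, a chain of the transporter that carries tryptophan, differed by 0.39 ± 0.10, the kynurenine aminotransferase gene Kyat1 by -0.46 ± 0.12 and Naprt, which makes NAD from nicotinic acid, by -0.49 ± 0.13, with adjusted p of 0.15, 0.153 and 0.158. Of the other tryptophan dioxygenases, Tdo2, the liver-type enzyme, differed by 0.01 ± 0.12 and Ido2, the relative of Ido1, by 0.20 ± 0.15 (adjusted p = 0.983 and 0.61).

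On the arginine side, 19 genes of transport, the urea cycle, proline and creatine were measured, of which 1 fell and none rose (median -0.09). At an unadjusted limma p under 0.05 there were 8 of the 19 (42.1%, against 18.6% of all genes), 2 higher and 6 lower. The groups did not overlap for 10 of the 19, against 26.8% of all genes. Ddah2, named for the breakdown of methylarginines, was 1.58-fold lower, at 8.68, 8.70 and 8.59 after SAH against 9.36, 9.41 and 9.18 in the sham group. Methylarginines and enzyme activity were not measured. The groups lay apart (difference -0.66 ± 0.10, SE, limma adjusted p = 0.0496), but the call was at the edge of the threshold. It ended when quantile normalization was repeated (0.0544), array medians were subtracted (0.0515) or the probe sets of a gene were averaged (0.0503), with the neutrophil covariate (0.206), and with any single array omitted, SAH 1, 4 and 5 and then sham 6, 7 and 8 (0.0526, 0.146, 0.171, 0.241, 0.216 and 0.0873). The difference was -0.56 with the covariate and between -0.62 and -0.73 with an array omitted. Its relative Ddah1 differed the other way, by 0.77 ± 0.22 (adjusted p = 0.188).

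The constitutive nitric oxide synthases had differences opposite in sign to that of Nos2. Nos1, the neuronal form, read 8.84, 8.78 and 8.83 after SAH against 9.26, 9.32 and 9.42 in the sham group, a difference of -0.51 ± 0.09 (SE; limma adjusted p = 0.0739) that passed with the filter on dim probe sets and with the trend and robust options. The groups did not overlap, and the same holds for Nos3, the endothelial form, which differed by -0.39 ± 0.11 (adjusted p = 0.189). Slc7a1, the constitutive arginine transporter CAT1, differed by 0.33 ± 0.11 (adjusted p = 0.251). Prodh, the first enzyme of proline breakdown, differed by -1.46 ± 0.30 and Oat, which links ornithine to proline, by -0.55 ± 0.11, with adjusted p of 0.0974 and 0.1, and both passed with the filter on dim probe sets.

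Nos2 needs the cofactor tetrahydrobiopterin, whose first synthetic enzyme is Gch1. Gch1 read 8.29, 9.09 and 9.32 after SAH against 7.85, 7.85 and 8.74 in the sham group. As for Nos2, sham array 8 lay above SAH array 1 and sham arrays 6 and 7 lay below all others. The difference was 0.75 ± 0.34 (SE; limma adjusted p = 0.377). None of the 5 measured genes of the cofactor passed (list median -0.13). Qdpr, which regenerates the cofactor and was the 1 gene of these with an unadjusted p under 0.05, differed by -0.39 ± 0.10 (SE), the synthetic enzyme Pts by -0.23 ± 0.13 and the regulator Gchfr by -0.13 ± 0.10 (limma adjusted p = 0.167, 0.492 and 0.626).

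None of 13 measured polyamine genes passed (list median 0.02). At an unadjusted limma p under 0.05 there were 2 (15.4%, against 18.6% of all genes), both lower after SAH. Sat2, named for its likeness to the spermidine acetyltransferase, differed by -0.87 ± 0.27 (SE), the polyamine oxidase Paox by -0.26 ± 0.10 and the antizyme Oaz1, which marks Odc1 protein for breakdown, by -0.32 ± 0.17. Their limma adjusted p were 0.208, 0.302 and 0.468. Sat1, the inducible acetyltransferase, differed by 0.25 ± 0.16 (adjusted p = 0.529).

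Of the known regulators, 17 were measured. None passed, and 4 had an unadjusted p under 0.05 (23.5%, against 18.6% of all genes). All 17 differences were above 0, against 47.3% of all genes. They ran from 0.01 to 1.90, with a median of 0.21. Some lay within 1 SE of 0, such as Rela (0.07 ± 0.09) and Il4r (0.08 ± 0.17). The list was chosen with earlier results of these data known, so the count of signs is a description. Socs1, the feedback inhibitor of interferon signalling, read 9.48, 11.11 and 11.30 after SAH against 8.52, 8.34 and 9.35 in the sham group. SAH arrays 4 and 5 were the highest, as for Ido1, and SAH array 1 lay next to sham array 8 (difference 1.90 ± 0.51, SE, limma adjusted p = 0.167). Socs1 passed without SAH array 1. Irf8 differed by 0.56 ± 0.23, Hif1a by 0.35 ± 0.12 and Atf4 by 0.26 ± 0.11 (adjusted p = 0.335, 0.248 and 0.338). Ifng, for interferon gamma, was below the array's median on every array and differed by 0.16 ± 0.14 (SE; limma adjusted p = 0.669). The difference of Irf1 was 0.52 ± 0.32 (adjusted p = 0.536), and its groups overlapped.

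**Figure D5:**
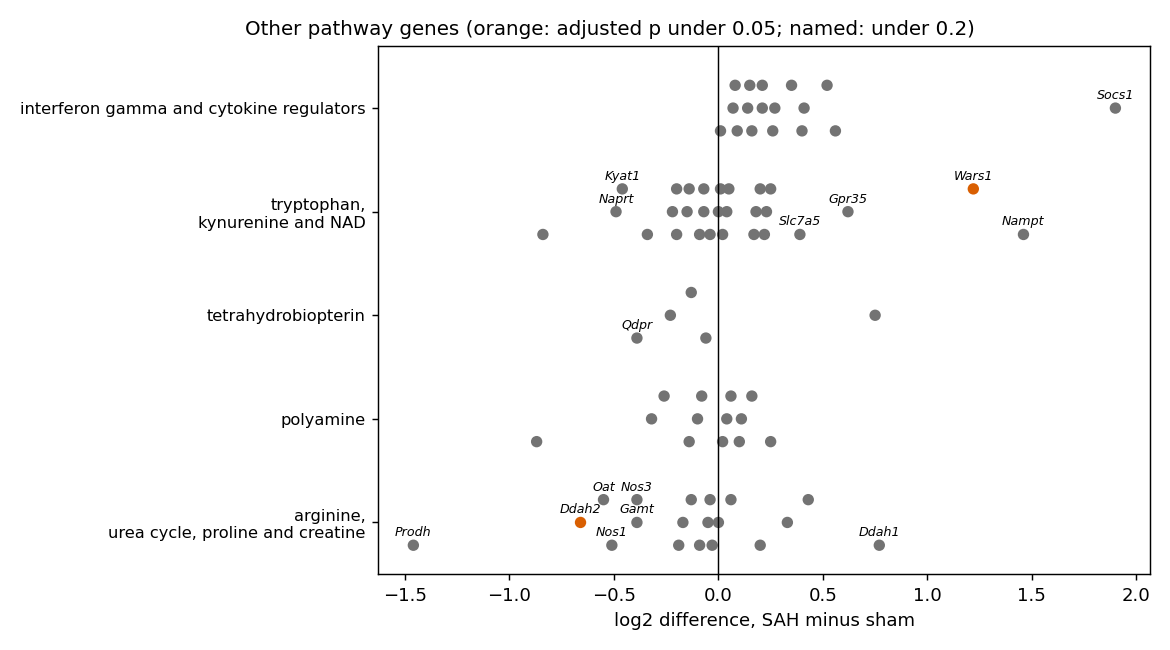
Log2 difference, SAH minus sham, of the other pathway genes in 5 lists, 1 point per gene, spread vertically only for legibility; orange points passed the threshold, and genes with an adjusted p under 0.2 are named. Wars1 (1.22) and Ddah2 (-0.66) are the orange points. The 17 regulators all lie above 0, from 0.01 to 1.90, where 47.3% of all genes do, and some lie within 1 SE of 0.

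Cell type markers give the setting of these values. The means of the neutrophil list are given above. The monocyte and macrophage list (18 measured, none called, median -0.00) had means of 9.44 to 9.55 in SAH and 9.27 to 9.85 in sham, with the highest in sham array 8. The smooth muscle list (10 measured, 1 fell, median -0.28) ran from 11.55 to 11.60 in SAH and from 11.79 to 11.97 in sham, and the endothelial list (9 measured, none called, median -0.19) from 10.08 to 10.35 and from 10.18 to 10.48. The fibroblast list (12 measured, none called, median -0.12) ran from 10.16 to 10.25 in SAH and 10.35 to 10.40 in sham, the lymphocyte list (10 measured, none called, median 0.10) from 7.16 to 7.33 and 6.96 to 7.21, and the list of neuron and astrocyte markers (11 measured, none called, median -0.16) from 8.23 to 8.55 and 8.37 to 8.84. Their part in the differences of the 10 genes was not tested. The neutrophil covariate moved with the groups on all arrays but sham array 8, and cannot tell neutrophils and SAH apart.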

How the data were processed

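The deposited values are log2 expression values, 1 column for each of 6 arrays; they were made by the authors with RMA in Affymetrix Expression Console 1.1.2, as named per the submitters' processing notes, with settings not given in the sources used here. RMA forces the arrays to 1 distribution, so a general change in RNA per sample cannot be seen. After 190 control probe sets were set aside, 36495 remained for testing; the platform annotation held by GEO, its symbols updated through RefSeq (GRCr8), gave 1 gene for 18511, several for 575 and none for 17409. A gene was represented by its probe set with the highest mean over the arrays.

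The groups were set against each other in R 4.3.3 with limma 3.58.1 (functions lmFit and eBayes, two-sided, no covariate, Benjamini-Hochberg over all probe sets). The fit was also run on simulated data with independent noise for each probe set. Those data hold no shift shared by the genes of an array, so the run does not cover such shifts. Differences are SAH minus sham on the log2 scale, and folds are powers of 2 of them. The number of arrays limits the precision. Of the 9 promoter motifs searched, 1 is not reported here. The 10 genes, the gene lists, the motifs and the neutrophil covariate were chosen with earlier results of these data known, so their counts are descriptions. Named were all 10 genes; from each pathway list every called gene, up to 4 further genes with the smallest p, and Nos1, Nos3, Tdo2, Ido2, Slc7a1, Gch1 and Wars1. Mrc1, Cd163, Ccl22, Ccr2, Mpo, Elane, Ltf, Cxcr1, Ifng, Irf1, Serpinb2, Acod1, Avp and Oxt were named after their values were seen. The same holds for Csf3r, Trem1, Lcn2, Tgm2, Retnla, Chi3l3, Pdcd1lg2, Snap25, Stmn2, Rbfox3, Rela and Il4r. Alternatives were a dim filter (only probe sets brighter than their array's median on at least 3 arrays), other normalizations and variance models, array weights, other thresholds and probe set rules, each array left out, and the neutrophil covariate.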

Additional observations from a re-analysis of the deposited data

How the results depend on the processing

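For the 10 genes, 157 values were computed under up to 16 alternatives each: 150 kept their direction and their side of the threshold, 1 crossed it (Ido1 without SAH array 1) and 6 changed sign, in Ass1 and Asl. Of the 157, 57 came from settings that leave the difference as it is (the dim filter, trend and robust options, both probe set rules with 1 probe set per gene, and both thresholds). Of the other 100, 93 kept direction and side. Ass1 was -0.01 with array medians subtracted and -0.30 with the neutrophil covariate, and between -0.24 and 0.26 with an array left out; Asl was between -0.09 and 0.03 with an array left out. Both differences are within 1 SE of 0 with all arrays. Ido1, Kmo and Kynu could not be tested with the dim filter, which removed them.

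The count of the 10 genes past the threshold was 0, and 0 to 1 with an array left out. Of the 82 other pathway genes 2 passed, 0 to 3 with an array left out, 6 with the dim filter (which tests fewer probe sets), 4 with trend and robust options, 5 at an adjusted p under 0.10, 1 each with repeated quantile normalization, medians subtracted, probe sets averaged or a minimum difference of 1, and 0 with the covariate. The count over all genes was 235, and became 672 with the dim filter, 363 with trend and robust options, 373 with array weights, 530 at 0.10, 155 with the minimum difference, 27 with the covariate and 29 to 670 with an array left out. Beyond what a filter, a threshold or fewer arrays do by construction, the cause was not tested. No paired analysis was possible because the groups share no array number. Signal limits the tryptophan-side genes, whose height above background is not known.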

Other observations

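Sham array 8, on which the overlap of Nos2 rests, also held the hypothalamic hormone genes Avp and Oxt, for vasopressin and oxytocin, at levels no other array reached. Avp read 12.51 there, against 7.66 and 8.77 on the other sham arrays and 7.93, 8.30 and 7.56 after SAH. Oxt read 12.88 there, against 8.66 and 9.63, and 8.58, 8.63 and 8.33. Their excess over the next array, 3.75 and 3.25, was the largest of any gene on that array. The list of neuron and astrocyte markers also had its highest mean there, 8.84, but its members were split. Snap25 (9.23) and Stmn2 (7.66) were highest on that array, whereas Rbfox3 (7.31) was lowest there. How this bears on the values of Nos2 in that array was not tested.

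SAH array 5, with the highest Nos2, also held the largest single-array excess for Acod1, the itaconate-producing enzyme of activated macrophages, which read 9.28, 9.79 and 11.73 after SAH against 7.48, 7.40 and 8.96 in the sham group. In sham it was highest on array 8, as Nos2 was. SAH array 1, with the highest Arg1, held its largest excess for Serpinb2, an inhibitor of plasminogen activators made by activated monocytes, at 9.68, 8.07 and 8.18 after SAH against 5.87, 6.07 and 6.65 in the sham group. These genes were picked by their excess on 1 array, so the values are a description.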
